A study of Mus musculus with 82 samples.

Results

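The tumours compared here are the mouse mammary tumour models 2153 and 2208, taken as the count-table columns that carry those model names. They make up 19 of the 82 libraries and 2 of the 13 models of the series: 7 libraries of 2153 and 12 of 2208. Both models are BALB/c, all tumours were untreated, and the submitters call them individual tumours and biological replicates. The labels give no transgene, host, passage or transplant history. Tumours with these numbers are known from published work as transplant lines of Trp53-null BALB/c mammary glands, which the labels here do not state. RNA came from cryopreserved whole tumours, so fewer cells of a type and less RNA per cell cannot be told apart.

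Fibroblast growth factors (Fgfs) are secreted ligands that bind Fgf receptors, a family of tyrosine kinases, with the help of heparan sulfate, and drive the Ras and ERK pathway, which in turn switches on its own inhibitors. In mice, Fgf3, Fgf4 and Fgf15 lie next to the cyclin gene Ccnd1, a region long known as an integration site of mouse mammary tumour virus. Met is the receptor tyrosine kinase for hepatocyte growth factor (Hgf), which mesenchymal cells secrete and which directs branching of mammary epithelium. Luminal keratins and tight junction genes mark the secretory epithelial layer of the gland, and both models were set side by side because they express such genes.

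Levels are CPM, read counts scaled to one fixed library total with TMM factors, and are not corrected for gene length. Differences are log2 values of 2153 minus 2208, given with their standard error. Mean levels with ± carry the SD over the 7 libraries of 2153 and the 12 of 2208. A gene is called when the adjusted p of edgeR's quasi-likelihood test (Benjamini-Hochberg, over all genes tested) is under 0.05. Library totals ran from 29.43 to 119.8 M counts in 2153 and from 14.44 to 132.7 M counts in 2208. Pairs of libraries correlated at 0.979 to 0.997 within 2153, 0.964 to 0.996 within 2208 and 0.935 to 0.965 between the models (Pearson's r of log2 CPM across genes, over 21, 66 and 84 pairs). Replicate 1 of 2153 stood a little apart, at 0.979 to 0.983 with the other 2153 libraries, which reached 0.986 to 0.997 among themselves. Replicates 9, 10 and 11 of 2208 had high skeletal muscle genes, with 15 of them summing to between 900.4 and 7647 CPM, against 6.31 to 179.5 CPM in the other 2208 libraries. Library numbers in the titles fall into ranges that the labels do not explain: range A holds 1 library of 2153 and 5 of 2208, and ranges B and D hold 3 of each. Replicate 12 of 2208 has a title of another form and is in no range, and it had the lowest fibroblast sum and the highest luminal sum of the 2208 libraries. The 3 muscle-rich libraries are all the 2208 libraries of range D. The part of the muscle RNA, and of replicate 1 of 2153, in the differences below was not tested beyond the values given beside them. Where a named call was lost within a range, the value there stands beside it.

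Of 22847 genes tested, 5946 (26.0%) were called higher and 5768 (25.2%) lower in 2153, with a median log2 difference of -0.00356 over all genes. The libraries of the models did not overlap for 2373 genes (10.4%) that were higher in 2153 and for 1868 (8.18%) that were lower. These shares are the background for every count below. Of the called genes, 5568 also differed by more than 1 on the log2 scale, 2939 of them lower in 2153.

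The Fgf ligands for which the comparison is named were far higher in 2153. Fgf4, a ligand of the early embryo (chr7:144847367-144865243, mm10), was measured at 319 to 506 CPM (median 428) in 2153 and 0 to 0.0163 CPM (median 0) in 2208. Only 2 counts of Fgf4 were recorded over all 12 libraries of 2208, so the pooled ratio was 161962 with a 95% counting interval of 44835 to 1337385. Fgf3 (chr7:144838083-144844436), a ligand of the developing inner ear and mammary bud, was at 14.6 to 19.9 CPM (median 18) in 2153 and 0 to 0.0666 CPM (median 0) in 2208. Fgf15 (chr7:144896531-144900953), the ligand that carries the bile acid signal of the gut, was at 109 to 179.5 CPM (median 125) in 2153 and 0.204 to 4.46 CPM (median 0.517) in 2208. No library of either model overlapped with the other for these genes, and among the other 11 models the highest means were 0.0581 CPM for Fgf4, 0.387 CPM for Fgf3 and 17.1 CPM for Fgf15 (in 2224). Because these genes name the comparison, their levels are a description and no test of them is given.

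**Figure D1:**
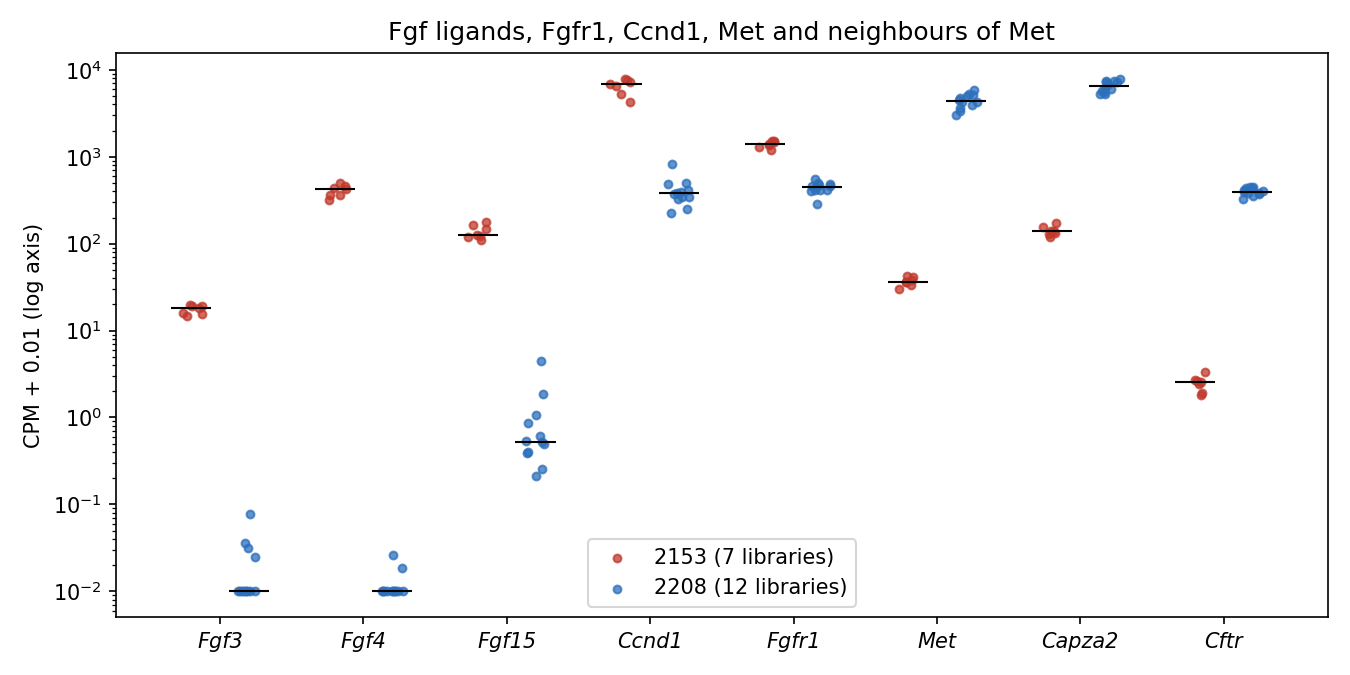
Level of 8 genes in each library of 2153 (red, 7 libraries) and 2208 (blue, 12 libraries), in CPM plus 0.01 on a log axis, with a black line at the median. The libraries of the models do not overlap for any of the 8 genes, with Fgf3, Fgf4, Fgf15, Ccnd1 and Fgfr1 higher in 2153 and Met, Capza2 and Cftr lower.

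Other Fgf ligands moved in both directions. Of 22 ligand genes tested, Fgf3, Fgf4 and Fgf15 among them, 7 were higher and 4 lower in 2153, with a median log2 difference of -0.08. The broadly acting ligand Fgf1 rose to 16.9 ± 4.74 CPM in 2153, against 4.42 ± 1.09 CPM in 2208 (1.93 ± 0.24, adjusted p = 9.96e-11), with no overlap between libraries. Fgf9, a ligand of epithelial and mesenchymal exchange, was low in both models at 0.684 CPM in 2153 and 0.144 in 2208 (2.18 ± 0.39, adjusted p = 2.41e-06). Fgf2, which binds to matrix and acts on many cell types, fell (7.33 CPM in 2153 and 11.3 in 2208, -0.63 ± 0.24, adjusted p = 0.0212), and its libraries overlapped.

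On the receiving side, 8 of 16 receptor and adaptor genes were higher and 3 lower, with a median of 0.77. Fgfr1, a receptor for many of these ligands, was at 1185 to 1522 CPM (median 1403) in 2153 and 287 to 551 CPM (median 453) in 2208 (1.65 ± 0.18, adjusted p = 1.39e-12). Every 2153 library lay above every 2208 library, although 2336 had a mean of 5987 CPM. Fgfbp1, a secreted protein that frees Fgfs from the matrix, was at 5.53 to 25 CPM (median 9.9) in 2153 and 0 to 0.915 CPM (median 0.278) in 2208 (5.07 ± 0.44, adjusted p = 2.81e-16), again with no overlap. Fgfr3 (4.54 CPM in 2153 and 1.96 in 2208), the adaptor Frs2 (72 CPM in 2153 and 41.7 in 2208) and Flrt2, an adhesion protein that binds Fgf receptors (21.4 CPM in 2153 and 3.77 in 2208), also rose. The heparan sulfate carrier Sdc1 fell to 171 ± 46 CPM in 2153, against 427 ± 98.4 CPM in 2208 (-1.32 ± 0.17, adjusted p = 3.7e-10), as did Flrt3 (5.08 CPM in 2153 and 26.7 in 2208) and the low-level receptor Fgfr4 (0.903 CPM in 2153 and 2.26 in 2208), which was not called within range B (-0.63, adjusted p = 0.0606). Fgfr2, the receptor of the embryonic mammary placode, was low in both models, at 0.544 to 1 CPM (median 0.814) in 2153 and 0.155 to 0.916 CPM (median 0.428) in 2208, and was not called (adjusted p = 0.0552).

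Genes that ERK signalling induces and that mostly act to restrain it were higher in 2153 as a group. Of 16 feedback and target genes, 11 were higher and 2 lower, against 26.0% and 25.2% of all genes, and the median was 0.66. Spry2, an inhibitor of receptor tyrosine kinase signalling, was at 86.7 to 103 CPM (median 90.5) in 2153 and 21.3 to 26.6 CPM (median 22.1) in 2208 (2.00 ± 0.13, adjusted p = 7.89e-22). No library overlapped, and 2153 had the highest and 2208 the lowest mean of the 13 models for Spry2. Spry2 lies on chromosome 14, where 276 of 367 genes of at least 5 CPM were higher. The part of this position in the Spry2 difference was not tested. The ERK phosphatase gene Dusp4 was at 218 to 404 CPM (median 260.0) in 2153 and 39.3 to 164 CPM (median 134) in 2208 (1.31 ± 0.24, adjusted p = 3.7e-06), and Phlda1, an early response gene, at 899 to 1277 CPM (median 1219.9) in 2153 and 338 to 609 CPM (median 481) in 2208 (1.22 ± 0.22, adjusted p = 1.88e-06). Both gene products are linked to growth factor signals, and neither gene overlapped between the models. Further increases were called for the ERK phosphatase gene Dusp6 (0.63 ± 0.17), the AP-1 gene Fosl1 (1.64 ± 0.32), the Pea3 family factors Etv4 (0.91 ± 0.16) and Etv5 (0.45 ± 0.15), and the Ras pathway inhibitors Spred1 (0.93 ± 0.10) and Spred2 (1.03 ± 0.11). Etv1, a further Pea3 factor, fell (83.3 CPM in 2153 and 128 in 2208, -0.62 ± 0.23, adjusted p = 0.0216), as did Spred3 (8.59 CPM in 2153 and 18.9 in 2208, -1.13 ± 0.25, adjusted p = 0.000114). Etv1 was not called within range D (-0.25, adjusted p = 0.319). It lies inside a block of chromosome 12, described below, in which 87 of 97 genes were lower. The part of this position in the Etv1 difference was not tested.

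Met (chr6:17463800-17573980) stood the other way round, at 30.5 to 42.4 CPM (median 36.2) in 2153 and 3063 to 5897 CPM (median 4390.1) in 2208. Its lowest library in 2208 lay far above its highest in 2153, and the means of the other 11 models ran from 21.1 to 9516 CPM, the last in T12. The ligand gene Hgf was low in both models, at 0.637 to 2 CPM (median 1.36) in 2153 and 0.749 to 4.98 CPM (median 2.07) in 2208, and was not called (-0.79 ± 0.43, adjusted p = 0.125). Of 22 Met pathway genes, Met itself included, 4 were higher and 8 lower in 2153, with a median of -0.04. Hpn, which encodes hepsin, a protease that activates Hgf, was at 0.663 to 2.23 CPM (median 1.46) in 2153 and 10.6 to 38.8 CPM (median 20.9) in 2208 (-3.86 ± 0.38, adjusted p = 7.07e-14). Spint1 and Spint2 encode inhibitors of the proteases that activate Hgf, and they were lower too, at 104 CPM in 2153 and 167 in 2208 for Spint1 and 209.7 CPM in 2153 and 399 in 2208 for Spint2 (-0.69 ± 0.13 and -0.93 ± 0.19). The docking protein genes Gab1 (-0.90 ± 0.13) and Gab2 (-0.78 ± 0.17), which relay Met signals, fell to 36.3 CPM in 2153 against 67.9 in 2208 for Gab1 and 13.2 CPM in 2153 against 22.6 in 2208 for Gab2. Gab2 was not called within range B (-0.54, adjusted p = 0.058). Lrig1, which promotes the breakdown of Met and of ERBB receptors, was higher, at 172 to 295 CPM (median 215) in 2153 and 39.7 to 60.5 CPM (median 45.6) in 2208 (2.22 ± 0.14, adjusted p = 5.38e-23), with no overlap.

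The raised genes on chromosome 7 formed a block of 3.79 Mb at its distal end. The limits of this and of each later block were drawn after the values were seen, so their counts describe the blocks and carry no test. Among protein-coding genes with at least 5 CPM in either model, 28 of 34 from Chid1 to Tpcn2 (chr7:141493136-145284011) were higher in 2153 and 4 lower. Over all 11012 such genes of the genome, 34.3% were higher and 30.4% lower. The median in the block was 1.60, while the 20 genes just before it had a median of -0.73, with 3 higher and 16 lower. The edge fell between neighbours: Tspan4, a tetraspanin, was at 38.6 CPM in 2153 and 91.6 in 2208 (-1.25 ± 0.23), and Chid1, the next gene, was at 142 CPM in 2153 and 36.2 in 2208 (1.97 ± 0.11).

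Within this block, Ccnd1 (chr7:144929931-144939925), the cyclin that carries cells out of G1, was at 4322 to 7929 CPM (median 6919) in 2153 and 226 to 823 CPM (median 379) in 2208 (4.01 ± 0.20). The highest 2208 library stayed below the lowest 2153 library, and no other model had a mean above 1048 CPM. Neighbours outside the Fgf family were raised as well. The calcium channel gene Tpcn2 was at 173 CPM in 2153 and 12.9 in 2208 (3.75 ± 0.15), and Nadsyn1, of NAD synthesis, at 106 CPM in 2153 and 9.8 in 2208 (3.44 ± 0.10). The cysteinyl-tRNA synthetase gene Cars was at 515 CPM in 2153 and 61.9 in 2208 (3.06 ± 0.10), and the scaffold gene Ppfia1 at 725 CPM in 2153 and 112 in 2208 (2.70 ± 0.11). The death domain adaptor Fadd (2.47 ± 0.08), the actin regulator Cttn (1.54 ± 0.09) and the chloride channel Ano1 (1.87 ± 0.22) followed, and 2153 had the highest mean of the 13 models for Ccnd1 and for each of these neighbours. Cd81, a tetraspanin gene inside the block, was lower at 83.3 CPM in 2153 and 290.1 in 2208 (-1.80 ± 0.14).

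The genes around Met formed the counterpart in 2208. From Tes to Tmem229a (chr6:17065149-24956297, 7.89 Mb), 20 of 21 genes were lower in 2153 and 0 higher, with a median of -4.51. The 20 genes before and after it had medians of -0.21 and -0.45. Capza2, which caps actin filaments (chr6:17636234-17666972), was at 118 to 174 CPM (median 140.4) in 2153 and 5274 to 7932 CPM (median 6535) in 2208. Cftr, an epithelial chloride channel (chr6:18170687-18322768), was at 1.8 to 3.33 CPM (median 2.55) in 2153 and 329 to 453 CPM (median 394) in 2208, and Tes, a focal adhesion gene, at 112 to 163 CPM (median 145) in 2153 and 5118 to 7923 CPM (median 5791) in 2208. None of these overlapped, and 2208 had the highest mean of the 13 models for each of the 3 genes, whereas T12, with the highest Met level, had 4379 CPM of Capza2 and 352 CPM of Tes.

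Further along the block, Fezf1, a zinc finger factor of the forebrain, was at 0.206 CPM in 2153 and 77 in 2208, and Ptprz1, a neural receptor phosphatase, at 3.1 CPM in 2153 and 391 in 2208. The lysine-degrading enzyme gene Aass was at 0.575 CPM in 2153 and 76.6 in 2208, and the respiratory complex I gene Ndufa5 at 23.6 CPM in 2153 and 714 in 2208. Genes of general cell function were lower as well: the RNA-binding gene Lsm8 (-4.84 ± 0.16), the chromatin gene Ing3 (-3.53 ± 0.11), the actin regulator Wasl (-3.60 ± 0.15) and Fam3c (-4.51 ± 0.17) were all lower in 2153. The caveolin genes Cav1 (-3.14 ± 0.31) and Cav2 (-5.68 ± 0.27), which lie between Tes and Met, were lower too. Tspan12, a tetraspanin inside the block, was lower by little (-0.42 ± 0.18, adjusted p = 0.0434) and was not called within range B (-0.19, adjusted p = 0.165). Just outside it, Mdfic was not called (-0.32 ± 0.17, adjusted p = 0.105) and the telomere gene Pot1a was lower by little (-0.47 ± 0.15, adjusted p = 0.00458). Pot1a was not called with number range as a term (-0.18, adjusted p = 0.178), within range B (-0.12, adjusted p = 0.383) or within range D (-0.02, adjusted p = 0.848).

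**Figure D2:**
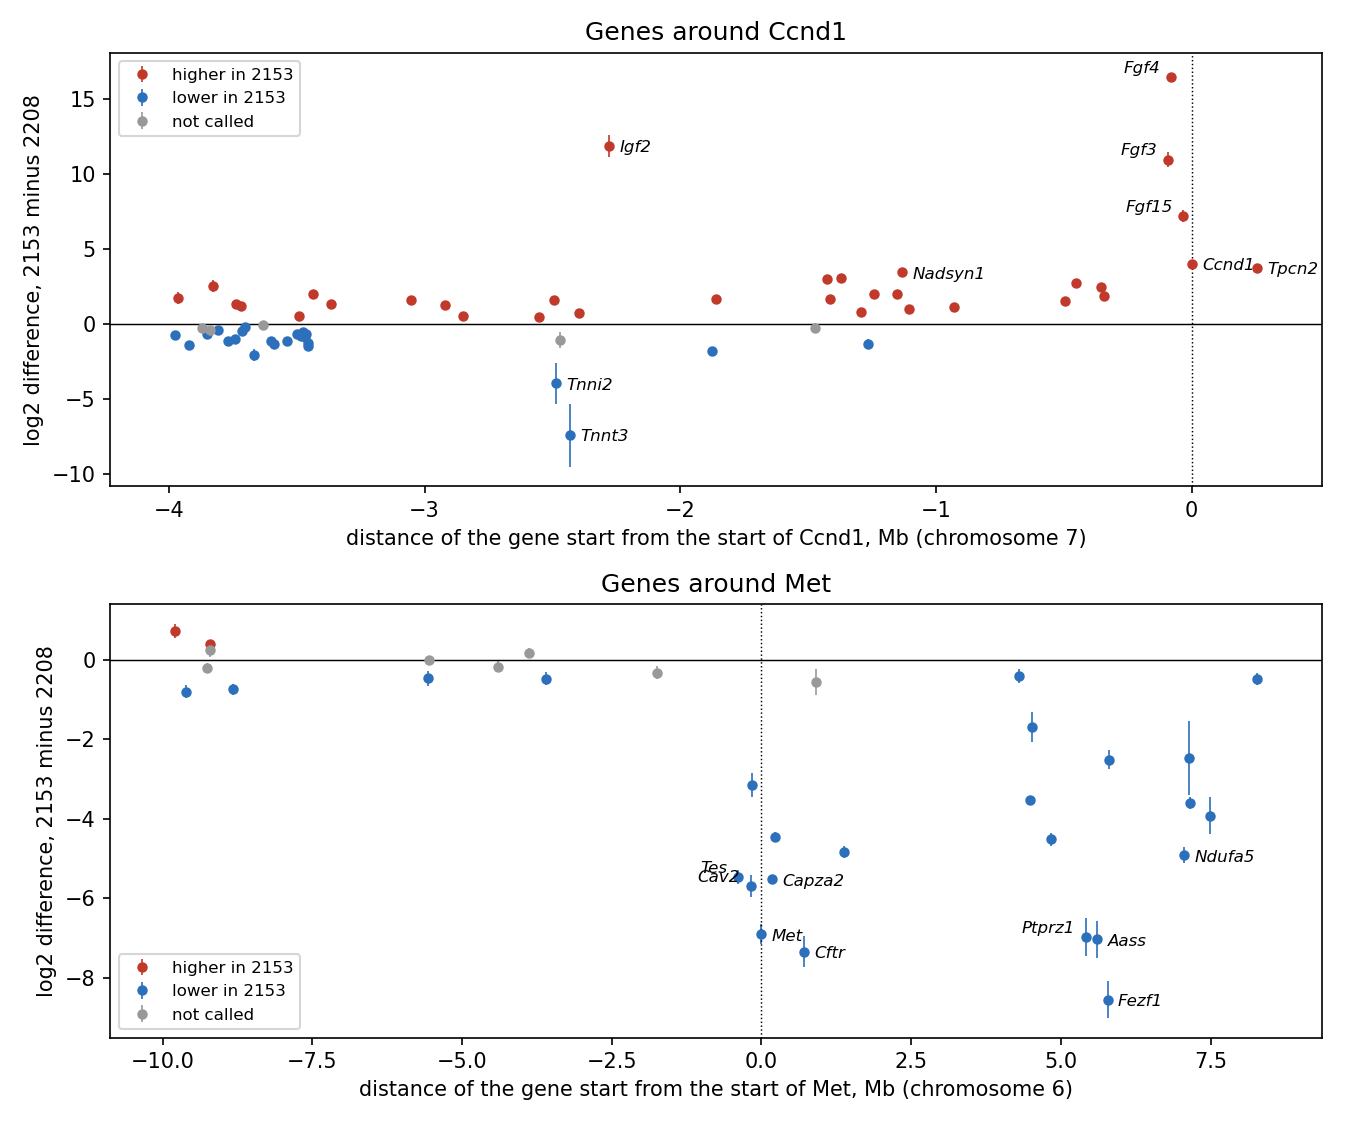
Log2 difference (2153 minus 2208, bars for ± 1 standard error) of protein-coding genes with at least 5 CPM in either model, by distance in Mb from the start of Ccnd1 on chromosome 7 (top) and of Met on chromosome 6 (bottom). Genes just before Chid1 are mostly below 0 and those from Chid1 on mostly above, with exceptions such as the muscle genes Tnni2 and Tnnt3. Around Met the differences drop at Tes and return near 0 at Pot1a, with Tspan12 near 0 between them.

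Smaller shifts of neighbouring genes appeared elsewhere, named after their values were seen. In 5-Mb windows with at least 10 such genes, the median log2 difference of 371 windows had a 5th percentile of -0.69 and a 95th of 0.72. On chromosome 8, 24 of 25 genes from Fat1 to Tenm3 (chr8:44935447-48843951) were higher in 2153, with a median of 1.85. The 20 genes before Fat1 were mostly higher too (15 higher, 1 lower, median 1.03), so Fat1 does not mark where the shift begins. The 20 genes after Tenm3 had a median of -0.10. Tenm3, a teneurin that guides neuronal wiring, was at 291 to 593 CPM (median 489.9) in 2153 and 0.261 to 8.07 CPM (median 2.89) in 2208 (7.08 ± 0.59). The protocadherin gene Fat1 was at 725 CPM in 2153 and 234 in 2208 (1.63 ± 0.15). On chromosome 16, 27 of 29 genes from Rwdd2b to Rcan1 (chr16:87433407-92470867) were higher, with a median of 1.27, among them the chaperonin subunit Cct8 (2.04 ± 0.11), the splicing cofactor Son (2.13 ± 0.13) and the purine synthesis gene Gart (1.48 ± 0.10). On chromosome 12, 87 of 97 genes from Rab10 to Prkd1 (chr12:3247428-50649098) were lower, with a median of -0.95, such as Dock4, an activator of Rac (-2.88 ± 0.16), and the neurotrophin signalling scaffold Kidins220 (-1.83 ± 0.14). Set against the median of the other 11 models, the chromosome 8 and 16 genes had medians of 1.89 and 1.81 in 2153 and 0.02 and 0.14 in 2208. The chromosome 12 genes had a median of -0.32 in 2153 and 0.75 in 2208.

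Whole chromosomes differed as well. On chromosome 14, 276 of 367 genes were higher and 25 lower in 2153 (median 0.74), and on chromosome 19, 300 of 409 were higher and 39 lower (median 0.74). Medians were below 0 on chromosomes 7, 18 and X among others: -0.49 over chromosome 7, -0.44 over chromosome 18 and -0.44 over chromosome X. Per library, the median over chromosome 14 relative to the other 11 models was 0.23 to 0.37 in 2153 and -0.57 to -0.43 in 2208. The libraries of the models did not overlap in this measure for 11 of 20 chromosomes. DNA copy number was not measured, and genes of a block or chromosome are not independent of each other.

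**Figure D3:**
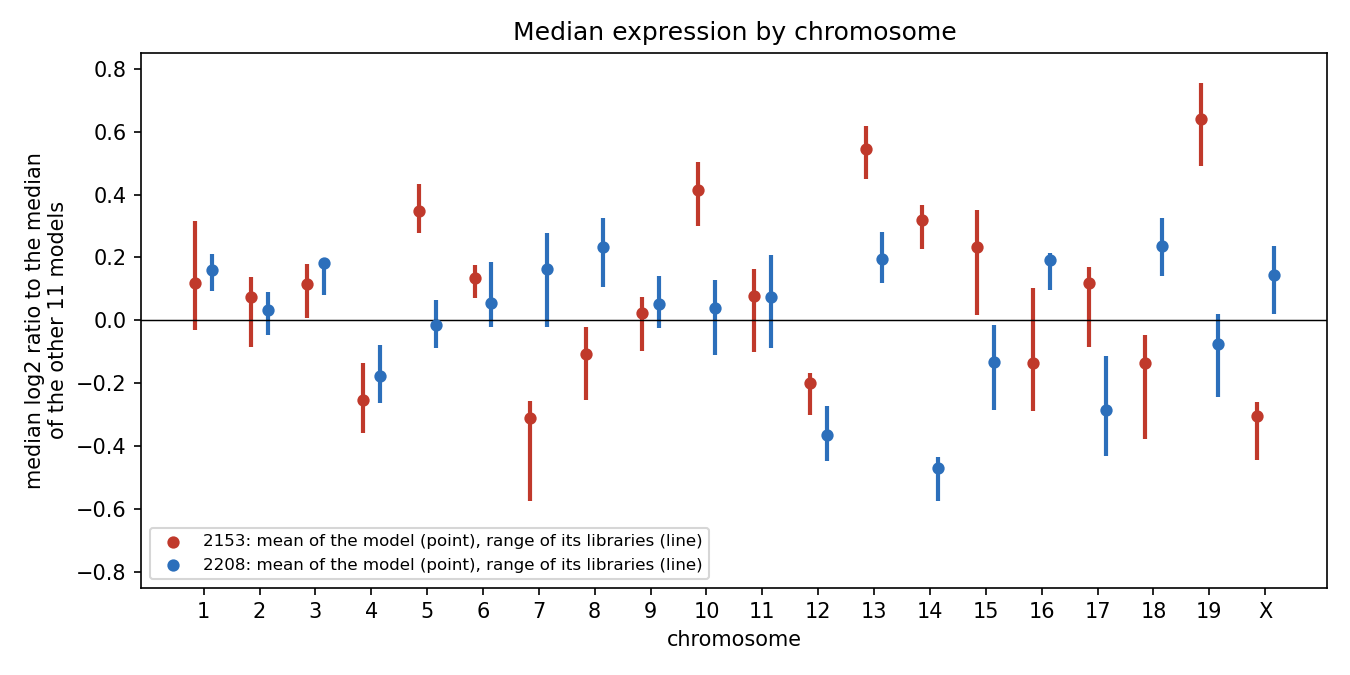
Median over the genes of each chromosome of the log2 ratio (pseudocount 0.1 CPM) to the median of the other 11 models, for 2153 (red, left) and 2208 (blue, right). Points stand for the model mean and lines for the range of its libraries, and the lines of the models are apart on chromosomes 14 and 19, where 2153 is higher, and on 7 and X, where 2208 is higher.

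Igf2 and H19 are imprinted neighbours on chromosome 7 that mouse cells normally express from opposite parental copies under 1 shared control region. Both lie inside the raised block described above, and they stood in opposite directions in these models. Igf2 (chr7:142650766-142666816), a fetal growth factor, was at 3525 to 4603 CPM (median 3919) in 2153 and 0.0666 to 6.63 CPM (median 0.289) in 2208 (11.83 ± 0.72, adjusted p = 6.27e-24). H19 (chr7:142575529-142578143), a non-coding RNA, was at 0.746 to 21.4 CPM (median 4.55) in 2153 and 359 to 2109.8 CPM (median 819) in 2208 (-7.17 ± 0.85, adjusted p = 3.59e-11). Every 2153 library had more Igf2 and less H19 than every 2208 library. Igf2os, which overlaps Igf2 on the other strand, was at 60.8 CPM in 2153 and 0.00552 in 2208 (12.62 ± 0.52). Strand was not stated for these libraries, so Igf2 and Igf2os cannot be told apart. The next-highest model had a mean of 440.0 CPM of Igf2 (9263), and 4T1 had the highest H19 mean, 2339 CPM.

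More genes of the Igf axis were lower than higher in 2153. Of 24 Igf axis genes, Igf2 and H19 included, 4 were higher and 10 lower, with a median of -0.31. Igf2bp1, an oncofetal protein that binds Igf2 mRNA, was at 0.127 to 0.556 CPM (median 0.264) in 2153 and 40.9 to 89.4 CPM (median 75) in 2208 (-7.78 ± 0.71, adjusted p = 1.68e-15). Igfbp5, a secreted binding protein linked to mammary involution, was at 20.3 to 88.8 CPM (median 32.1) in 2153 and 1271 to 7381 CPM (median 3402) in 2208 (-6.43 ± 0.60, adjusted p = 6.13e-15). Neither gene overlapped between the models, and 2208 had the highest Igf2bp1 mean of the 13. Further decreases were called for the binding proteins Igfbp2 (6.52 CPM in 2153 and 127 in 2208, -4.27 ± 0.60) and Igfbp3 (-1.12 ± 0.31), the mRNA-binding protein Igf2bp3 (-2.99 ± 0.45) and the clearance receptor Igf2r (-0.43 ± 0.13). Igf2r was not called within range D (-0.10, adjusted p = 0.391). Summed levels of the list differed in opposite directions by range, at 4585 to 4772 CPM in 2153 and 7395 to 9350.1 CPM in 2208 in range B, and 4989 to 5685 CPM in 2153 and 3229 to 3427 CPM in 2208 in range D. The receptor substrate Irs4 rose but stayed low, at 1.15 CPM in 2153 and 0.0453 in 2208 (4.79 ± 0.55, adjusted p = 1.73e-11).

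**Figure D4:**
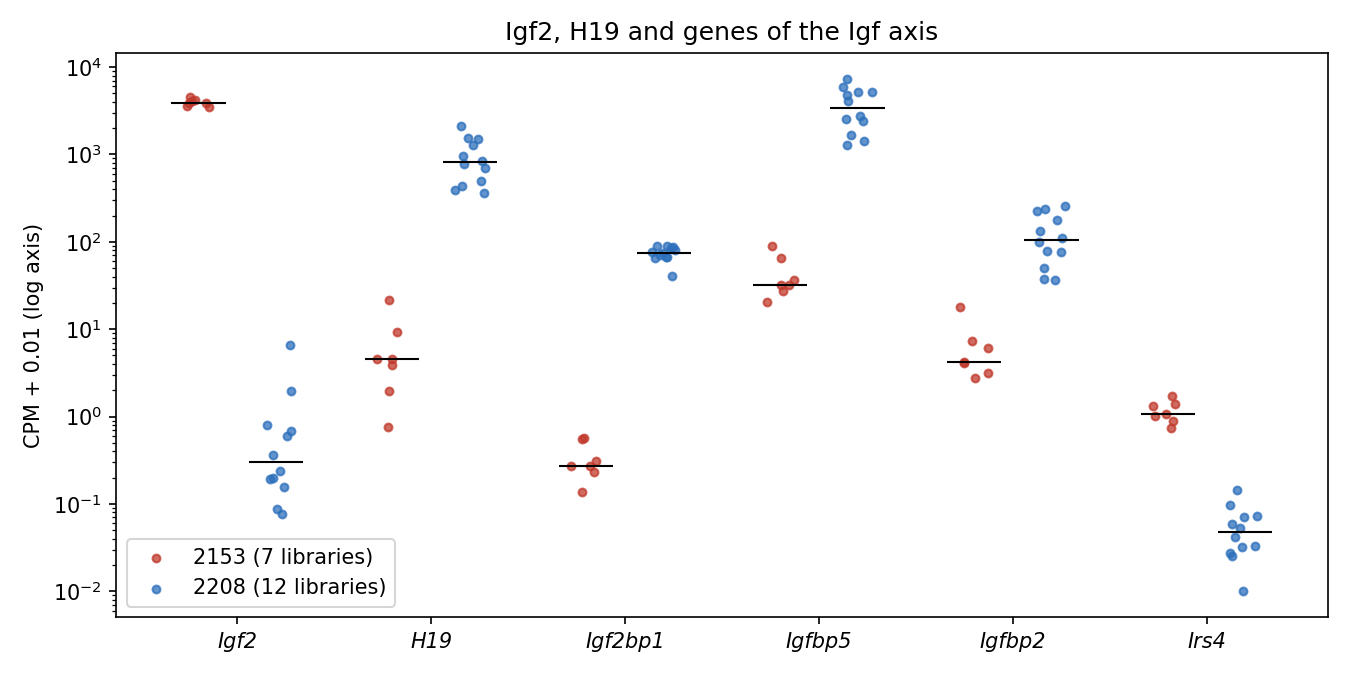
Level of Igf2, H19 and 4 genes of the Igf axis in each library of 2153 (red, 7 libraries) and 2208 (blue, 12 libraries), in CPM plus 0.01 on a log axis, with a black line at the median. Igf2 and Irs4 are higher and H19, Igf2bp1, Igfbp5 and Igfbp2 lower in every 2153 library than in any 2208 library.

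Other imprinted genes of the same region differed too. Kcnq1ot1, the antisense RNA that silences its neighbours, was at 58.2 to 231 CPM (median 121) in 2153 and 1.67 to 7.42 CPM (median 6.13) in 2208 (4.36 ± 0.34, adjusted p = 2.15e-18) but cannot be told apart from Kcnq1, since strand was not stated. Phlda2, a placental growth suppressor in that cluster, was at 32.8 to 67.8 CPM (median 40.6) in 2153 and 3.42 to 8.18 CPM (median 4.88) in 2208 (3.02 ± 0.26, adjusted p = 3.89e-16). Both were higher in every 2153 library, while Cdkn1c, a cell cycle inhibitor of the same cluster, was not called (-0.24 ± 0.32, adjusted p = 0.562). Snrpn, an imprinted splicing gene elsewhere on chromosome 7 whose transcript is shared with Snurf, was lower at 0.253 to 0.696 CPM (median 0.544) in 2153 and 19.6 to 36.6 CPM (median 27.7) in 2208 (-5.83 ± 0.21, adjusted p = 1.07e-37), and 2153 had the lowest mean of the 13 models.

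The 15 largest differences each way with no overlap between libraries were of several kinds. Beside the Fgf and Igf2 genes, 2153 was higher for Sorcs1, a sorting receptor of neurons (14.9 CPM in 2153 and 0.00962 in 2208, 10.10 ± 0.78), and the homeobox genes Dlx2 (79.3 CPM in 2153 and 0.276 in 2208, 8.10 ± 0.66), Pitx1 (36.3 CPM in 2153 and 0.21 in 2208, 7.36 ± 0.69) and Lhx2 (10.2 CPM in 2153 and 0.0868 in 2208, 6.91 ± 0.46). Hhip, which binds and blocks hedgehog ligands (7.08 CPM in 2153 and 0.0515 in 2208, 6.97 ± 0.52), and Sema3e, a guidance cue (11.3 CPM in 2153 and 0.101 in 2208, 6.80 ± 0.40), were higher as well. The secreted salivary genes Dcpp1 (7.44 ± 0.99) and Dcpp2 (7.46 ± 1.04) and the X-linked Xlr4a (6.80 ± 0.53) have close copies, so their counts are uncertain. Tenm3 completed the higher genes. In the other direction, Mageb16, an X-linked gene of the germ line, had 0 counts in all 7 libraries of 2153 and 3.46 to 10.7 CPM in 2208, at least 986-fold lower against a limit of 3 counts over the 7 libraries. Dmrt3, a factor of spinal neurons, had 3 counts in 2153, for a ratio of 2208 over 2153 of 1433 with a 95% counting interval of 490.2 to 6951. The posterior homeobox gene Hoxc13 (0.021 CPM in 2153 and 18.9 in 2208), the fibrinogen chain Fgg (0.117 CPM in 2153 and 76.9 in 2208), the actin nucleator Fmn2 (0.0752 CPM in 2153 and 22 in 2208), the amine oxidase Maob (0.0886 CPM in 2153 and 16.1 in 2208) and the vesicle sensor Syt7 (0.174 CPM in 2153 and 17.2 in 2208) were lower in 2153. Fezf1, Igf2bp1, Cftr, H19, Aass, Ptprz1, Met and Igfbp5 made up the rest.

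Luminal genes were expressed in both models but differed one by one. Of 20 tested, 8 were higher and 7 lower in 2153, with a median of 0.23, and the summed level was 4848 to 7617 CPM (median 6068) in 2153 and 4501 to 8291 CPM (median 5673) in 2208. As this list named the pair, it is given as a description. The apical mucin Muc1 was at 12.1 to 28.3 CPM (median 15.2) in 2153 and 157 to 531 CPM (median 223) in 2208 (-4.03 ± 0.29), the alveolar factor Elf5 at 12.5 to 28.1 CPM (median 19) in 2153 and 65.7 to 232 CPM (median 126) in 2208 (-2.81 ± 0.35), and the receptor Kit of luminal progenitors at 22.1 to 72 CPM (median 37.6) in 2153 and 118 to 260.0 CPM (median 162) in 2208 (-2.01 ± 0.25). All 3 were lower in every 2153 library, as were Krt7 (189 CPM in 2153 and 611 in 2208), Gata3, the luminal master factor (1.53 CPM in 2153 and 7.73 in 2208), and the endotoxin coreceptor Cd14 (60.2 CPM in 2153 and 463 in 2208). Foxa1, the pioneer factor of hormone-sensing cells, stood apart at 48.4 to 78.1 CPM (median 51.6) in 2153 and 2.28 to 6.22 CPM (median 3.8) in 2208 (3.86 ± 0.53). Prom1 (268 CPM in 2153 and 109 in 2208), the adhesion gene Epcam (1230.2 CPM in 2153 and 628 in 2208) and the epithelial factor Elf3 (175 CPM in 2153 and 99 in 2208) were also higher in every 2153 library. The keratin Krt8 was at 1273 CPM in 2153 and 929 in 2208. Krt8 was not called with size factors of the DESeq2 type computed in edgeR (0.43, adjusted p = 0.0505) or with no filter (0.43, adjusted p = 0.0841). Without the muscle-rich libraries of 2208 it was not called either (0.46, adjusted p = 0.0609).

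Hormone receptors split in the same gene-by-gene way. Of 14 hormone-sensing genes, 5 were higher and 6 lower. Pgr, the progesterone receptor, was at 3.13 to 7.15 CPM (median 4.57) in 2153 and 0 to 0.374 CPM (median 0.111) in 2208 (4.81 ± 0.64, adjusted p = 1.15e-09). Prlr, the prolactin receptor, fell to 3.87 ± 0.998 CPM in 2153, against 18.7 ± 7.67 CPM in 2208 (-2.28 ± 0.31, adjusted p = 3.11e-09). Of 15 milk genes, 2 were higher and 5 lower, with a median of -0.65. The casein Csn3 rose to 614 ± 339 CPM in 2153, against 128 ± 94.6 CPM in 2208 (2.26 ± 0.40, adjusted p = 1.53e-06), with overlapping libraries, whereas Lalba, the lactose synthase subunit, fell to 0.111 ± 0.0361 CPM in 2153, against 5.73 ± 3.42 CPM in 2208 (-5.70 ± 0.84, adjusted p = 2.97e-08).

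Junction genes were described by their values for the same reason, with 6 of 24 higher, 7 lower (11 in the fit of the 19 libraries) and a median of -0.13. The claudin Cldn8 was at 31.8 to 51.4 CPM (median 48.9) in 2153 and 3.01 to 9.33 CPM (median 5.72) in 2208 (2.89 ± 0.31) and Cldn4 at 16.6 to 66.1 CPM (median 48.3) in 2153 and 132 to 368 CPM (median 198) in 2208 (-2.33 ± 0.35). These claudins therefore differed in opposite directions, each without overlap. The adhesion molecule F11r was lower (145 CPM in 2153 and 275 in 2208). Of 21 basal genes, 5 rose, 4 fell and 12 were not called, with a median of 0.11. Over all genes, 26.0% rose and 25.2% fell. Basal genes that rose included the differentiation inhibitor Id4 (56.6 CPM in 2153 and 5.83 in 2208, 3.28 ± 0.31), the laminin chain Lamb3 (177 CPM in 2153 and 42.8 in 2208, 2.05 ± 0.28) and the basal factor Trp63 (16.2 CPM in 2153 and 5.39 in 2208, 1.60 ± 0.37). Those that fell are not named here, and 1 basal gene was lower without overlap.

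Genes of epithelial ion and fluid transport were higher in 11 of 21 and lower in 4, with a median of 0.70; this list holds Cftr and Ano1 from the blocks above. The water channel Aqp5 was at 1046 to 1607 CPM (median 1402) in 2153 and 133 to 713 CPM (median 292) in 2208 (2.01 ± 0.26, adjusted p = 4.59e-10). The sodium pump subunit Atp1b1 (119 CPM in 2153 and 10.5 in 2208, 3.50 ± 0.25) was higher in every 2153 library than in any 2208 library. The ion cotransporters Slc12a2 (1.06 ± 0.22) and Slc4a4 (1.47 ± 0.39) also rose. Carbonic anhydrase Car2, which supplies bicarbonate, went against the list at 0.986 to 3.57 CPM (median 1.41) in 2153 and 46.8 to 139 CPM (median 78.3) in 2208 (-5.67 ± 0.38, adjusted p = 7.89e-22).

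Genes of mitosis and DNA replication were higher in 2153. Of 20 proliferation genes, 19 rose and 0 fell (background 26.0% and 25.2%), with a median of 0.64, and Plk1 was the one not called (0.26 ± 0.18, adjusted p = 0.224). Kif11, the motor that separates spindle poles, was at 223 to 339 CPM (median 266) in 2153 and 49.2 to 104 CPM (median 85.7) in 2208 (1.74 ± 0.15, adjusted p = 3.74e-17). Foxm1, the factor that drives mitotic genes, was at 119 to 240.0 CPM (median 191) in 2153 and 47.4 to 91.7 CPM (median 65.6) in 2208 (1.48 ± 0.13, adjusted p = 3.71e-16). Both were above 2208 in every 2153 library, as were the kinetochore motor Cenpe (1.20 ± 0.17) and the cyclin Ccnb1 (1.07 ± 0.17). Kif11 lies on chromosome 19, where 300 of 409 genes of at least 5 CPM were higher. The part of this position in the Kif11 difference was not tested. Mki67, the usual proliferation marker, overlapped between models at 359 to 636 CPM (median 518) in 2153 and 201 to 467 CPM (median 354) in 2208 (0.53 ± 0.18, adjusted p = 0.0125), and was not called within range B (0.26, adjusted p = 0.44). Summed levels of the list were 2683 to 3039.7 CPM in 2153 and 1221 to 2156 CPM in 2208 in range B, and 3984 to 4313 CPM in 2153 and 2293 to 2682 CPM in 2208 in range D. Within range B alone (3 against 3 libraries), 11 of 20 members were called higher.

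DNA replication genes followed, with 15 of 20 higher and 2 lower and a median of 0.69. Mcm7, a subunit of the replicative helicase, was at 250.0 to 399 CPM (median 291) in 2153 and 109 to 204 CPM (median 135) in 2208 (1.15 ± 0.11, adjusted p = 1.68e-14). Mcm3, another subunit (211 CPM in 2153 and 97.4 in 2208, 1.12 ± 0.14), and the polymerase Pole (85 CPM in 2153 and 35.5 in 2208, 1.26 ± 0.13) also stood above 2208 in every library. The helicase partners Gins2 (-0.55 ± 0.15, adjusted p = 0.00155) and Gins3 (-0.36 ± 0.14, adjusted p = 0.0236) fell, although Gins3 was not called without replicate 1 or replicate 2 of 2153 in the fit of the 19 libraries. Within range B neither Gins2 (-0.22, adjusted p = 0.242) nor Gins3 (-0.16, adjusted p = 0.605) was called. Regulators of the G1 to S step moved both ways, with 7 of 25 higher and 4 lower. The inhibitors Cdkn1b (209 CPM in 2153 and 99.4 in 2208) and Cdkn2c (23.4 CPM in 2153 and 10.4 in 2208) and the pocket protein Rbl1 (77.1 CPM in 2153 and 26.1 in 2208) rose with Ccnd1. Rb1, a relative of Rbl1 (23.2 CPM in 2153 and 52.4 in 2208, -1.18 ± 0.21) and the cyclin Ccne1 (9.1 CPM in 2153 and 16 in 2208, -0.82 ± 0.19) fell.

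Promoter windows of these genes were searched for short elements that cell cycle genes are known for. RefSeq windows (GRCm38.p6) of 250 bases before to 50 after the gene start were searched on both strands for the E2F-type letters TTTGGCGC, TTTCCCGC, TTTGCCGC and TTTCGCGC. Matches on opposite strands may overlap. Windows were at hand for 15 of the 20 replication genes, and 8 of them (53.3%) held such a run, against 2.6% of all 27025 genes. The shorter element TTTGAA, known from mitotic genes, was in 11 of 15 proliferation genes with a window (73.3%), against 20.2% of all genes. A match is a description of these letters, not a bound site. The sequences below are shown because their genes rose most among members with a match before the start, and capitals mark the matches.
Mcm7 promoter (chr5:138172001-138172088, - strand): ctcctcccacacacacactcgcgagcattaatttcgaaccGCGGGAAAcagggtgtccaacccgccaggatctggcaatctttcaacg
Cdc6 promoter (chr11:98907973-98908060, + strand): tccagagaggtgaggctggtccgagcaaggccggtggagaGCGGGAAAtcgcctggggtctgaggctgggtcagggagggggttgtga
Mcm6 promoter (chr1:128359768-128359855, - strand): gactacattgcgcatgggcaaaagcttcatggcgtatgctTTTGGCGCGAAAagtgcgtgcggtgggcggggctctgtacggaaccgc
Kif11 promoter (chr19:37376323-37376381, + strand): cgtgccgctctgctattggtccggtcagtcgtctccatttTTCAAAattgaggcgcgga
Cdk1 promoter (chr10:69352938-69353023, - strand): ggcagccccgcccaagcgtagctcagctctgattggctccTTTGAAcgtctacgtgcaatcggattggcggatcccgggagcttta
Ccnb2 promoter (chr9:70421676-70421761, - strand): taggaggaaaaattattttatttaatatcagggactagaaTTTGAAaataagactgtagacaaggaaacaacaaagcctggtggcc
The printed replication genes differed by 1.15 ± 0.11 (Mcm7), 1.02 ± 0.16 (Cdc6, a loader of the helicase) and 0.89 ± 0.13 (Mcm6), and the mitotic ones by 1.74 ± 0.15 (Kif11), 0.71 ± 0.15 (Cdk1, the mitotic kinase) and 0.65 ± 0.14 (Ccnb2, its cyclin).

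Interferon response genes were lower in 2153. Of 25 tested, 18 fell and 1 rose, with a median of -1.47. Isg15, a ubiquitin-like tag of virus defence, was at 3.19 to 18.1 CPM (median 9.2) in 2153 and 24.7 to 113 CPM (median 43.4) in 2208 (-2.54 ± 0.40, adjusted p = 1.11e-07). Bst2, which tethers budding virus, was at 11.4 to 40.3 CPM (median 17.8) in 2153 and 57.5 to 241 CPM (median 89.9) in 2208 (-2.43 ± 0.32, adjusted p = 7.93e-10). Rsad2, an antiviral enzyme, was at 2.89 to 15.1 CPM (median 8.33) in 2153 and 20.4 to 93 CPM (median 40) in 2208 (-2.45 ± 0.52, adjusted p = 5.17e-05), and the regulator Irf7 at 10.6 to 56.6 CPM (median 37.2) in 2153 and 64.8 to 305 CPM (median 112) in 2208 (-2.07 ± 0.39, adjusted p = 8.41e-06). For all 4, every 2153 library lay below every 2208 library. Rsad2 lies inside the lowered block of chromosome 12. Irf7 is among the 20 genes just before the chromosome 7 block, of which 16 were lower. The part of these positions in the differences of Rsad2 and Irf7 was not tested. The member called higher was Irf9, the DNA-binding part of the interferon factor, at 63.5 CPM in 2153 and 47.1 in 2208 (0.43 ± 0.16, adjusted p = 0.0218). In the fit of the 19 libraries its call was lost without replicate 1, 2, 3 or 4 of 2153 and without most single libraries of 2208. Its difference was -0.27 within range D. The list summed to 679.9 to 1164 CPM in 2153 and 725 to 2129.8 CPM in 2208 in range B, where the models overlapped. It summed to 265 to 281 CPM in 2153 and 1079 to 1905 CPM in 2208 in range D, where they did not. Within range B alone, 10 of 25 members were called lower.

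The interferon-stimulated response element, searched as GAAA, any 2 bases and GAAA on both strands, with overlapping copies counted, was in 13 of the 19 list members with a RefSeq window (68.4%), against 3.99% of all genes. The lines below show the members with a match before the start that fell most, with matches in capitals, in the same build.
Isg15 promoter (chr4:156200847-156200936, - strand): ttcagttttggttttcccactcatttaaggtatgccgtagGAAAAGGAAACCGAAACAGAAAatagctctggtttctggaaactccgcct
Rsad2 promoter (chr12:26456523-26456612, - strand): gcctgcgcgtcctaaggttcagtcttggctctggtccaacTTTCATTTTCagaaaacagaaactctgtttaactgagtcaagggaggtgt
Bst2 promoter (chr8:71537553-71537642, - strand): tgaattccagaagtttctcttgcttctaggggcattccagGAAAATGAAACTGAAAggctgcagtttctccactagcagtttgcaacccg

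Antigen presentation by class II molecules was lower as well. Of 10 genes, 8 fell and 0 rose, with a median of -1.82. Cd74, the invariant chain, was at 50 to 217 CPM (median 67.8) in 2153 and 242 to 666 CPM (median 526) in 2208 (-2.24 ± 0.61, adjusted p = 0.00153), and the loading factor H2-DMb1 at 1.25 to 6.16 CPM (median 2.14) in 2153 and 6.33 to 24.1 CPM (median 14.2) in 2208 (-2.27 ± 0.60, adjusted p = 0.00104). The class II chain H2-Aa fell to 33 ± 24.5 CPM in 2153, against 168 ± 62.5 CPM in 2208 (-2.34 ± 0.66, adjusted p = 0.00195), and its libraries overlapped, unlike those of Cd74 and H2-DMb1. The list summed to 328 to 538 CPM in 2153 and 1059 to 1323 CPM in 2208 in range B, and to 166 to 207 CPM in 2153 and 978 to 1591 CPM in 2208 in range D, with no overlap in either range. Of 12 class I genes, the immunoproteasome subunits Psmb10 (20.9 CPM in 2153 and 58.8 in 2208, -1.50 ± 0.25) and Psmb8 (61.7 CPM in 2153 and 119 in 2208, -0.95 ± 0.23) fell and the trimming peptidase Erap1 rose (0.44 ± 0.12). Psmb8 was not called within range B (-0.37, adjusted p = 0.355). Class I sums overlapped in range B, at 2269.7 to 3955 CPM in 2153 and 1934 to 3519 CPM in 2208, and did not in range D, at 1489 to 1648 CPM in 2153 and 2439 to 5147 CPM in 2208. Of 15 checkpoint genes, 8 fell and 0 rose, including the costimulator Cd86 (2.79 CPM in 2153 and 7.34 in 2208, -1.40 ± 0.34).

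Markers of white cells moved in different directions. Neutrophil genes rose in 12 of 18 and fell in 0, with a median of 1.57. The calprotectin chain S100a9 was at 23.9 to 177 CPM (median 73.2) in 2153 and 3.49 to 38.5 CPM (median 10.9) in 2208 (2.55 ± 0.50, adjusted p = 1.46e-05), and the chemokine receptor Cxcr2 at 8.35 to 30.8 CPM (median 17.3) in 2153 and 1.58 to 10 CPM (median 3.85) in 2208 (1.74 ± 0.38, adjusted p = 8.56e-05). Libraries of the models overlapped for both, as for S100a8 (46.4 CPM in 2153 and 11.6 in 2208) and the growth factor receptor Csf3r (41.9 CPM in 2153 and 16.2 in 2208). The sum over the list was 266 to 461 CPM in 2153 and 65.7 to 110.0 CPM in 2208 in range B, and 91.9 to 112 CPM in 2153 and 46.9 to 85.7 CPM in 2208 in range D. In the fit of the 19 libraries 8 members were higher, and 6, 6, 7 and 7 were without replicate 1, 2, 3 or 4 of 2153. Of 8 blood genes (haemoglobin, red cell and platelet markers), 5 rose as well and 1 fell, with a median of 1.52 and overlapping sums of 129 to 1192 CPM (median 397) in 2153 and 61.2 to 642 CPM (median 166) in 2208. Replicates 1 and 2 of 2153 had the highest sums of both lists, at 449 and 461 CPM for neutrophil genes and 1006 and 1192 CPM for blood genes. The part of blood in the neutrophil difference was not tested. The attractant Cxcl1 was at 51.3 to 96.4 CPM (median 60.7) in 2153 and 13.4 to 48 CPM (median 23.6) in 2208 (1.41 ± 0.29, adjusted p = 3.9e-05), without overlap. Csf3, which drives neutrophil production, rose to 22.1 ± 4.54 CPM in 2153, against 5.97 ± 3.88 CPM in 2208 (1.90 ± 0.43, adjusted p = 0.000146).

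Of 18 macrophage genes, 7 were lower and 0 higher, with a median of -0.61 and sums of 798 to 1581 CPM (median 1023) in 2153 and 1086 to 2064 CPM (median 1559) in 2208. The complement chain C1qa was at 60.1 to 130.5 CPM (median 88.8) in 2153 and 149 to 368 CPM (median 247) in 2208 (-1.48 ± 0.42, adjusted p = 0.0021), and Adgre1, the F4/80 antigen, at 15.7 CPM in 2153 and 31.5 in 2208 (-1.0, adjusted p = 0.029). Adgre1 was not called within range B (-0.49, adjusted p = 0.177). Among T cell genes, 2 of 16 rose and 4 fell, with a median of -1.17 and 3 members above 0. The kinase gene Lck (16.2 CPM in 2153 and 3.05 in 2208, 2.39 ± 0.22) and the surface gene Cd5 (8.12 CPM in 2153 and 0.651 in 2208, 3.64 ± 0.31) rose without overlap, while the receptor chain Il2ra fell (0.139 CPM in 2153 and 1.25 in 2208). Summed T cell levels were 15.5 to 36.3 CPM (median 32.6) in 2153 and 6.8 to 20.3 CPM (median 12.8) in 2208, and they overlapped. Lck and Cd5 held most of the summed level in 2153.

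Stromal genes were lower in 2153. Fibroblast and matrix genes fell in 10 of 16 and rose in 0, with a median of -1.43 and sums of 1471 to 2389 CPM (median 2064) in 2153 and 3360.4 to 14107 CPM (median 5949) in 2208, which did not overlap. The collagen Col1a1 was at 531 to 835 CPM (median 791) in 2153 and 1129 to 4817 CPM (median 2024) in 2208 (-1.71 ± 0.50, adjusted p = 0.00281). The collagen Col3a1 (-2.22 ± 0.58) and the matrix proteins Postn (113 CPM in 2153 and 555 in 2208, -2.29 ± 0.48) and Lum (5.85 CPM in 2153 and 48.5 in 2208, -3.05 ± 0.80) were lower too. Spp1, the secreted osteopontin that tumour cells and macrophages make, was at 714 to 1112 CPM (median 760.1) in 2153 and 3113 to 14965 CPM (median 6541) in 2208 (-3.21 ± 0.68, adjusted p = 5.17e-05). Cxcl12, a stromal chemokine, was at 2.5 to 6.93 CPM (median 6.29) in 2153 and 38.9 to 108 CPM (median 62.4) in 2208 (-3.71 ± 0.59, adjusted p = 1.76e-07), without overlap. Without the 3 muscle-rich libraries of 2208, 9 fibroblast genes were called lower. Within range D, where the 2208 libraries are those same 3, all 16 were. The part of stromal and immune cell markers in the interferon and class II differences was not tested.

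Endothelial genes fell in 6 of 14 (10 in the fit of the 19 libraries) and rose in 1, with sums of 334 to 445 CPM (median 391) in 2153 and 357 to 652 CPM (median 459.5) in 2208. The clotting factor gene Vwf (-1.68 ± 0.48) and the diaphragm gene Plvap (-0.88 ± 0.31) fell, and the Vegf receptor Flt1 rose (1.02 ± 0.21). The vessel growth factor Vegfc was at 14 to 25.9 CPM (median 22.7) in 2153 and 1.11 to 3.38 CPM (median 2.55) in 2208 (3.03 ± 0.24, adjusted p = 3.2e-18). The vessel growth factors Vegfa (499 CPM in 2153 and 141 in 2208, 1.82 ± 0.39) and Angpt1 (14.3 CPM in 2153 and 1.96 in 2208, 2.86 ± 0.38) rose. All 15 skeletal muscle genes were called lower, but 3 were without the muscle-rich libraries and 0 within range B (edgeR). The muscle kinase Ckm had 0.0118 to 0.597 CPM (median 0.0567) in 2153 and 0.0523 to 833 CPM (median 0.353) in 2208, with 94.7 CPM or more only in replicates 9, 10 and 11 of 2208. No muscle marker was at 0 in all libraries of either model, and the sums in 2153 were 4.53 to 41.9 CPM.

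**Figure D5:**
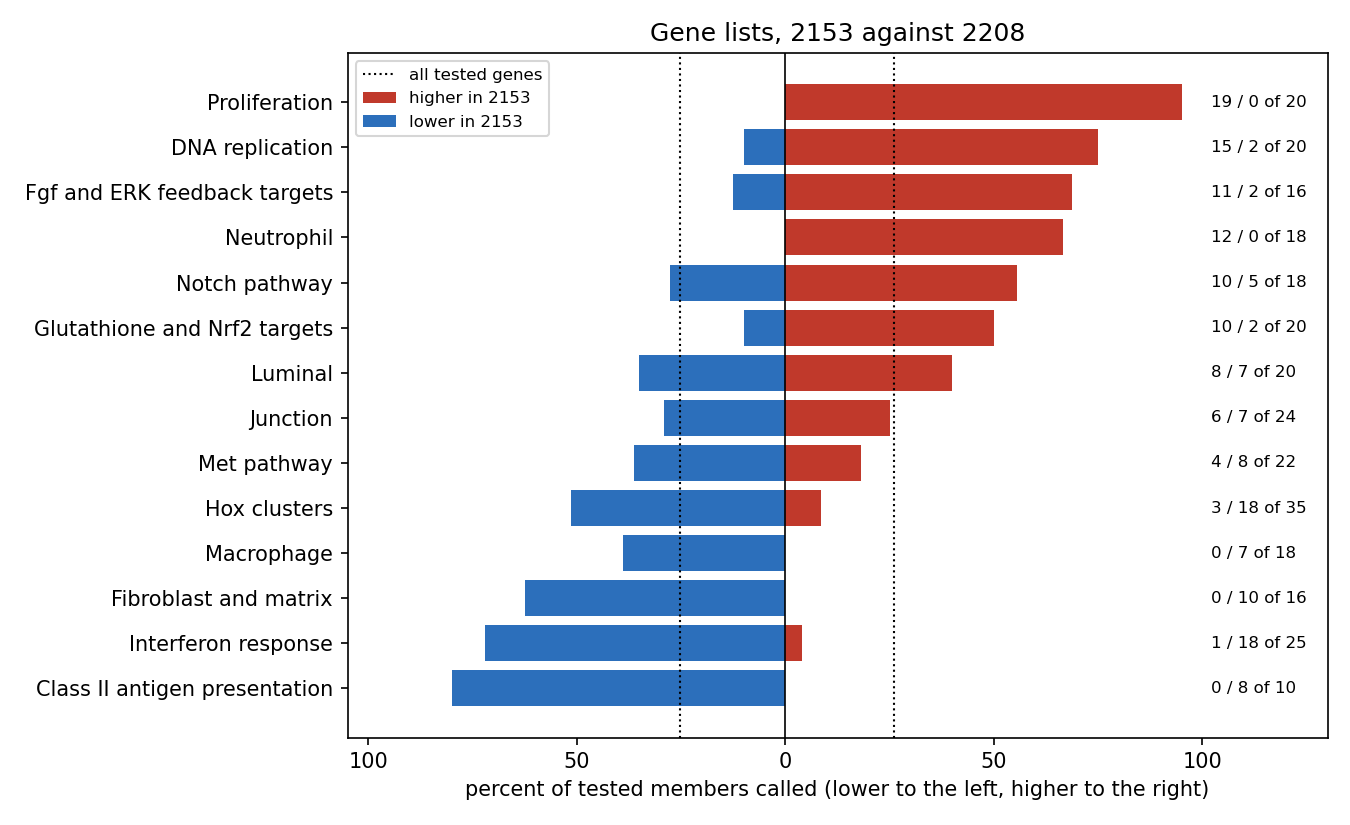
Percent of the tested members of 14 gene lists that were called higher (red, to the right) or lower (blue, to the left) in 2153 than in 2208, with the numbers higher and lower of those tested at the right. Dotted lines mark the shares over all tested genes, 26.0% higher and 25.2% lower, and the proliferation and class II lists lie farthest from them.

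Patterning genes moved both ways. Of 35 Hox genes tested, 3 rose and 18 fell in 2153, with a median of -1.11. Hoxc9, of the trunk, was at 0.43 to 0.56 CPM (median 0.496) in 2153 and 16.5 to 34 CPM (median 21.3) in 2208 (-5.48 ± 0.46, adjusted p = 4.93e-17), and Hoxa10, of the uterus and limb, at 4.98 to 7.88 CPM (median 7.39) in 2153 and 22.3 to 40.1 CPM (median 31) in 2208 (-2.15 ± 0.44, adjusted p = 2.64e-05). The anterior gene Hoxa3 was at 40.7 to 65.1 CPM (median 58) in 2153 and 6.15 to 11.1 CPM (median 9.14) in 2208 (2.57 ± 0.33, adjusted p = 4.14e-10). Hoxa2 (15.5 CPM in 2153 and 1.85 in 2208, 3.07 ± 0.30) rose as well, so members of the Hoxa cluster moved in opposite directions. In a list of 45 tested Dlx, Irx, Pax, Msx and related factors, 17 rose and 12 fell. Dlx1, the partner of Dlx2 on chromosome 2, was at 50.9 to 88.2 CPM (median 77) in 2153 and 0.85 to 7.87 CPM (median 2.14) in 2208 (4.98 ± 0.39, adjusted p = 1.69e-18). Tbx2, which restrains cell cycle inhibitors (44.6 CPM in 2153 and 5.24 in 2208), the eye factor Pax6 (7.46 CPM in 2153 and 0.0719 in 2208) and the pharyngeal factor Pax9 (12.9 CPM in 2153 and 1.1 in 2208) also rose, and Irx5 fell (3.88 CPM in 2153 and 35.9 in 2208, -3.21 ± 0.20).

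Developmental signalling pathways held members that moved each way. Notch genes rose in 10 of 18 and fell in 5, with a median of 0.65. The ligand Dll1 was at 105 to 159 CPM (median 125) in 2153 and 16.7 to 49.8 CPM (median 25.2) in 2208 (2.23 ± 0.26, adjusted p = 1.87e-11), without overlap. The ligand Jag2 (38.7 CPM in 2153 and 7.84 in 2208, 2.31 ± 0.21), the receptor Notch1 (422 CPM in 2153 and 202 in 2208, 1.06 ± 0.15) and the targets Hey1 (28.1 CPM in 2153 and 3.71 in 2208, 2.92 ± 0.28) and Hes1 (0.88 ± 0.18) rose without overlap. The Notch regulator Dtx1 fell (1.33 CPM in 2153 and 4.67 in 2208, -1.82 ± 0.24). BMP and TGF-beta genes rose in 13 of 31 and fell in 9. The ligand Bmp5 was at 24.4 to 161 CPM (median 99.1) in 2153 and 0.786 to 8.59 CPM (median 1.01) in 2208 (5.91 ± 0.54, adjusted p = 2.2e-15), and none of the other 11 models had a mean above 0.665 CPM. Bmp2 (15.8 CPM in 2153 and 1.15 in 2208, 3.81 ± 0.40) and the BMP target Id3 (41.2 CPM in 2153 and 14.3 in 2208, 1.53 ± 0.34) rose, and the ligand Tgfb2 fell (11.6 CPM in 2153 and 67.2 in 2208, -2.53 ± 0.21).

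Of 41 Wnt genes, 9 rose and 12 fell, with a median of -0.19. Lgr6, a stem cell receptor for R-spondins, was at 74.9 to 149.9 CPM (median 105) in 2153 and 1.58 to 6.15 CPM (median 3.3) in 2208 (5.01 ± 0.34, adjusted p = 3.98e-21). Lef1, a nuclear factor of the pathway, was at 0.471 to 4.34 CPM (median 1.16) in 2153 and 13.3 to 65.2 CPM (median 27.6) in 2208 (-4.50 ± 0.60, adjusted p = 1.61e-09), and the feedback inhibitor Nkd1 at 2.05 CPM in 2153 and 14 in 2208 (-2.77 ± 0.40). The receptor Fzd7 rose (523 CPM in 2153 and 224 in 2208, 1.22 ± 0.19). Hedgehog genes rose in 7 of 14 and fell in 2. The coreceptor Cdon (176 CPM in 2153 and 24.4 in 2208, 2.85 ± 0.17) and the factor Gli3 (71.3 CPM in 2153 and 27.7 in 2208, 1.37 ± 0.30) rose beside Hhip, and the coreceptor Boc fell (9.02 CPM in 2153 and 33.9 in 2208, -1.91 ± 0.29).

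Glutathione and Nrf2 target genes rose in 10 of 20 and fell in 2, with a median of 0.56. The quinone reductase Nqo1 was at 24.2 to 38.7 CPM (median 31.3) in 2153 and 0.209 to 4.26 CPM (median 1.53) in 2208 (4.25 ± 0.37, adjusted p = 3.29e-16), and 2208 had the lowest mean of the 13 models. The glutathione synthesis gene Gclc was at 33.8 to 83.3 CPM (median 48.1) in 2153 and 17.8 to 24.7 CPM (median 22.3) in 2208 (1.39 ± 0.12, adjusted p = 6.17e-16), without overlap. The reductase Gsr (98.7 CPM in 2153 and 50 in 2208) and the cystine carrier Slc7a11 (13.1 CPM in 2153 and 4.22 in 2208, 1.64 ± 0.28) rose as well, each without overlap.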

How the data were processed

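RNA of 82 untreated mammary tumours was sequenced from TruSeq mRNA libraries, per the labels' protocols. Per the submitters' processing notes, the tools were STAR, Picard, SAMtools and Salmon, and the build was mm10. Tool versions, the annotation and the use of strand are not given in the sources used here. The authors deposited expected counts per gene (47480 genes, 85.5% of values whole) and a normalized signal, which by its values is 1000 times the count, divided by the upper quartile (percentile 75) of that library's counts above 0. The deposited expected counts were rounded and fitted with edgeR 4.0.16 in R 4.3.3 (filterByExpr with a minimum count of 10, TMM factors, quasi-likelihood test, 1 mean for each of 13 models), with 69 residual degrees of freedom before shrinkage. P-values were adjusted by Benjamini-Hochberg over 22847 genes.

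The submitters call the libraries individual tumours, but the labels give neither animals nor passages. The p-values therefore speak only of how far libraries of a model vary, a spread estimated over all 13 models together. Part of that spread may be technical. Libraries were counted as biological replicates of their model as labelled. The pair of models, the 56 gene lists and the tests were chosen with earlier results of these data known. Genes are named by these rules: the 15 largest differences each way without overlap and at least 5 CPM in the higher model, members of the Fgf, Met, Igf and neighbour lists, up to 6 members of each other list by size of difference, and members that move against their list. Some genes that these rules name are not reported here. Positions are those of GENCODE M21 on mm10, and promoter sequences are RefSeq's on GRCm38.p6. The alternative called DESeq2 size factors used RLE factors, of the DESeq2 type, computed in edgeR with its quasi-likelihood test. Other alternatives were the DESeq2 1.42.0 test, no filter, limma 3.58.1 on the deposited signal, the 19 libraries alone, library number ranges, and each library left out. Counting intervals are 95% and cover counting error only. Library totals ran from 14.44 to 132.7 M counts, so genes with few counts are less precise in the shallow libraries.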

Additional observations from a re-analysis of the deposited data

Results flagged for a closer look

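Within the 7 libraries of 2153, 1 library stood far from the others for 40 of the 232 genes named here, by a gap above Dixon's critical value for 7 values, which chance gives in about 1 in 20 groups. In 33 of the 40 cases the library was replicate 1, which lay above the others for 29 genes and below them for 4. Values are CPM. Replicate 1 was highest for Aass at 1.94, Ano1 at 2849, Bmp2 at 35.5, Car2 at 3.57, Cav2 at 52.8, Cdkn1c at 9.7, Cdon at 393 and Cttn at 1541. It was also highest for Cxcl1 at 96.4, Dcpp1 at 116, Dcpp2 at 97.1, Etv5 at 528, Fmn2 at 0.417, Frs2 at 98 and Gata3 at 2.82. The same held for Id3 at 73.6, Igfbp2 at 18.1, Irx5 at 7.93, Lef1 at 4.34, Muc1 at 28.3, Phlda2 at 67.8 and Rb1 at 38.3. The last of these genes were Slc12a2 at 1217, Son at 2435, Syt7 at 0.519, Tgfa at 173, Tgfb2 at 19.8, Trp53inp1 at 15.4 and Twist1 at 23.2. Replicate 1 was lowest for Erbb2 at 102 against 149, Fezf1 at 0.0506 against 0.201, Pitx1 at 3.71 against 35.3 and Spint1 at 56.6 against 97.5 CPM in the next library. Replicate 2 was highest for Bst2 at 40.3, Elf3 at 296, Erap1 at 145, Krt8 at 1717 and Pmaip1 at 9.69. Replicate 3 was highest for Ckm at 0.597 and H19 at 21.4.

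Replicate 1 of 2153 is numbered apart from the others, and its part in these values was not tested. In the fit of the 19 libraries, Gins3, Irf9 and Slc2a1 were no longer called without it.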

How the results depend on the processing

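No paired analysis was possible because the labels give the models no shared replicate numbers. With DESeq2 size factors, no filter, DESeq2, limma on the deposited signal, the 19 libraries alone and number range as a term, between 5255 and 5838 genes were higher and between 5108 and 6213 lower, and leaving out 1 library from the fit of the 19, which gave 5255 higher and 5570 lower, left 4984 to 5292 and 5202 to 5643. Within range B the counts were 4161 and 4217, and within range D they were 5800 and 6374. Requiring a log2 difference over 1 left 5568 genes in either direction, 2939 of them lower. Of 225 named genes that were called, 210 kept direction and call in every setting and 15 lost the call in at least 1.

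Within range B, 11 proliferation genes were higher, and 10 interferon, 5 checkpoint, 13 junction and 0 muscle genes lower. Within range D, 7 neutrophil genes were higher and 11 macrophage and 16 fibroblast genes lower. With number range as a term, 6 muscle, 10 endothelial and 11 junction genes were lower, and limma gave 7 muscle genes. In the 19 libraries alone, 10 endothelial and 11 junction genes were lower. Leaving out 1 library there gave 6 to 11 neutrophil genes higher, and 9 to 11 macrophage, 10 to 10 endothelial and 10 to 11 junction genes lower. Without the 3 muscle-rich libraries of 2208, a setting chosen after seeing the data, 3 muscle and 5 p53 genes were lower. Over all genes, that setting gave 5678 higher and 4949 lower, against 5946 and 5768 in the main fit. Cdkn1c turned to 0.11 and Irf9 to -0.27 on the log2 scale within range D, and Hgf to 0.17 within range B; none of these was called there. The causes were not tested. Ranges of 3 against 3 libraries have fewer degrees of freedom, and the lowest library total, 14.44 M counts, limits genes with few counts.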

Other observations

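Growth factor genes outside the Fgf and Met families moved both ways. Of 15 ERBB receptor and ligand genes, 6 were higher and 3 lower in 2153. The ligands Tgfa (108 CPM in 2153 and 56.9 in 2208, 0.92 ± 0.24, adjusted p = 0.00101) and Nrg2 (9.28 CPM in 2153 and 2.26 in 2208, 2.04 ± 0.29) rose and Nrg1 fell (0.999 CPM in 2153 and 3.55 in 2208, -1.83 ± 0.44). The receptors Egfr (5.95 CPM in 2153 and 7.41 in 2208, -0.32 ± 0.21, adjusted p = 0.204) and Erbb2 (149 CPM in 2153 and 131 in 2208, 0.18 ± 0.13, adjusted p = 0.239) were not called. Trp53 transcripts were at 108 to 131 CPM (median 124) in 2153 and 73.5 to 98.7 CPM (median 81.1) in 2208 (0.54 ± 0.16, adjusted p = 0.00268), which did not overlap. The labels do not state the Trp53 genotype of either model. Which cells of the whole tumours these transcripts came from was not tested. Of 20 p53 family and target genes, 8 were higher and 8 lower. The pro-apoptotic Pmaip1 (5.58 CPM in 2153 and 16 in 2208, -1.52 ± 0.24), Trp53inp1 (9.13 CPM in 2153 and 25.1 in 2208, -1.46 ± 0.22) and the nuclease Aen (21.7 CPM in 2153 and 46.7 in 2208, -1.11 ± 0.16) fell, and the p53 antagonist Mdm2 rose (97.2 CPM in 2153 and 71.8 in 2208, 0.44 ± 0.10).

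Metabolic lists split within themselves. Of 18 hypoxia and glycolysis genes, 5 rose and 4 fell: the glycolytic enzymes Aldoa (-0.97 ± 0.22), Pgk1 (-0.90 ± 0.24) and Ldha (-0.81 ± 0.20) fell, while the glucose carrier Slc2a1 (0.94 ± 0.33) and the hypoxia target Ankrd37 (2.42 ± 0.36) rose. Slc2a1 was not called without replicate 1 of 2153 (0.68 on the log2 scale), and neither Slc2a1 (0.87, adjusted p = 0.0889) nor Pgk1 (-0.62, adjusted p = 0.0515) was within range B. Cholesterol synthesis genes rose in 7 of 18 and fell in 7, with Hmgcs1 (0.66 ± 0.16) and Fdft1 (0.95 ± 0.16) higher and Mvd (-1.53 ± 0.18) and Fdps (-1.16 ± 0.21) lower. Among genes of epithelial-mesenchymal transition, 4 of 26 rose and 9 fell, with Twist1 lower (16.4 CPM in 2153 and 54 in 2208, -1.72 ± 0.31, adjusted p = 2.5e-06) and Prrx1 higher (88.5 CPM in 2153 and 38.5 in 2208, 1.20 ± 0.31, adjusted p = 0.000864). Twist1 lies inside the lowered block of chromosome 12, and the part of this position in its difference was not tested.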
